A study of Mus musculus with 6 samples.

Results

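One L1 copy held 265592 of the 393511 reads listed in L1 copies (67.5%) in small RNA libraries of mouse embryonic stem cells (ESCs). It is an L1Md_T element of 6646 bp on the minus strand of chromosome 13 (build mm9, 9831266 to 9837911). Its reads were described by placement, that is, by each distinct pair of first and last aligned base. There were 4206 placements in the copy, of 71895 over all L1 copies, and 3479 of them lay wholly within a window of 179 bp (9833551 to 9833729), 2.69% of the copy. The copy was selected for its high read number and the window spans the central 98% of its read starts and ends, so the abundance and position of these reads are descriptions and were not tested.

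The cells were E14, a feeder-free ESC line of 129/Ola background grown in serum and LIF. They were transduced with lentiviral pLKO.1 vectors that expressed a non-targeting shRNA (shScr), an shRNA against Tet1 (shTet1) or an shRNA against Tet2 (shTet2), and all groups were selected for 3 days in 1 μg/ml puromycin, which was added 24 h after infection, per the labels. TET1 and TET2 are enzymes that oxidise methylated cytosine. There were 2 libraries per group and 6 in all, and the labels do not say whether the replicates were separate cultures. The p-values therefore measure only the spread between these libraries, which may be technical. These files hold reads in L1 copies and give no level of Tet1 or Tet2, so the knockdown check that the study's methods describe was not repeated here.

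L1 elements are autonomous retrotransposons that copy themselves through an RNA intermediate, and full-length mouse L1Md_T elements are among the young families. Small RNAs of defined classes are known by their length: Dicer products such as microRNAs and small interfering RNAs are about as long as the 21 to 23 nt class used here, and Piwi-interacting RNAs, which silence transposons in the germline, are somewhat longer. Fragments of abundant RNAs such as ribosomal RNA also enter small RNA libraries, and the arrays of ribosomal RNA genes are largely missing from assembled genomes. In the gene annotation of the same build, the only gene that overlaps the copy is mmu-mir-2134-4 (9833715 to 9833771, minus strand), annotated as a miRNA. The nearest other genes are Zmynd11, 66699 bp below the copy, and Chrm3, 38470 bp above it.

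The sequence of the window on the strand of the copy is shown first, because the reads that dominate the libraries lie at its 3′ end. Capitals mark the commonest placement, which covers 9833551 to 9833595. Below it are the 3 commonest reads of that placement as sequenced, with the last base in capitals, and the 3 commonest reads of a group of placements farther upstream.
window, 9833551 to 9833729: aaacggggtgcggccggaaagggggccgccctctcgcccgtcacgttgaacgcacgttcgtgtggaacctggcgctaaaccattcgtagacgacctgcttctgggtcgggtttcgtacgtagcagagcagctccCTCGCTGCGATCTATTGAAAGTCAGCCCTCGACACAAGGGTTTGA
commonest read: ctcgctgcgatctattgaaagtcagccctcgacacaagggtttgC
next read of that placement: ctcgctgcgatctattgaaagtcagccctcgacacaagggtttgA
the third read of that placement: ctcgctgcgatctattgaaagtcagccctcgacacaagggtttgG
upstream read 1: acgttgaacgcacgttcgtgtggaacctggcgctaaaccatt
upstream read 2: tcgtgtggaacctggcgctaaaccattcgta
upstream read 3: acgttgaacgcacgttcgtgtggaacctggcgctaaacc

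The commonest read was listed 23417 times, which is 50.2% of the reads of its placement. The read that matches the genome, ending in A, was listed 10756 times (23.1%), and the read ending in G 2350 times (5.04%). The 3 upstream reads were listed 1193, 1192 and 977 times. The genome goes on past the 3′ edge of the window with a run of 36 A, counted from the edge base, as shown here with that run in capitals (9833511 to 9833571).
around the 3′ edge: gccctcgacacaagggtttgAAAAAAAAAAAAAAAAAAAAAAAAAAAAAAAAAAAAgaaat

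The reads lay in a stretch of the copy that other L1 copies do not share. Words of 15 nt were looked up in the 13685 other L1 copies that hold reads in these files. Over 281 bp (9833541 to 9833821) no word was carried by more than 2 of them, whereas 98.9% of the words in the rest of the copy were carried by at least 5 and the median word by 5418. The stretch reaches 92 bp beyond the 5′ edge of the window. Of the 265592 reads of the copy, 6 lay in the L1 sequence on either side of this stretch, and no 2 of them shared a placement. A total of 265590 reads were sense to the copy and 2 were antisense. The level of these reads is thus a level of the stretch and not of L1 sequence.

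Read numbers differed between libraries, and so did the precision. The window held 83524 and 89980 reads in shScr, 7040 and 16895 with shTet1, and 38651 and 25493 with shTet2 (replicates 1 and 2). A placement with 0 reads could have a share of up to 0.0426% of the window reads in replicate 1 of shTet1 and up to 0.00333% in replicate 2 of shScr. Distinct placements in the window numbered 2521 and 2436 in shScr, 862 and 1199 with shTet1, and 2119 and 1503 with shTet2. At an equal depth of 7040 reads the expected numbers were 923 and 812 in shScr, 862 and 762 with shTet1, and 1022 and 791 with shTet2. The groups overlapped at equal depth, and replicate 1 of each group held more placements than any replicate 2. The 501 placements seen in all 6 libraries held 90.5% of the window reads, and 971 placements were seen in 1 library only. Intervals and limits given here cover counting error only, since reads without molecular identifiers are not independent molecules.

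The 3′ ends were concentrated at the window's edge. The 3′ end at 9833551, the edge base itself, took 51.3% and 61.3% of window reads in shScr, 53.9% and 63.7% with shTet1, and 32.8% and 62.6% with shTet2. The neighbouring base, 9833552, took 12.9% and 11.01% in shScr, 10.6% and 11.8% with shTet1, and 7.87% and 12.4% with shTet2. At both positions the lowest of the 6 libraries was replicate 1 of shTet2, and at the edge base every replicate 2 was above every replicate 1. The edge of the window sits on the steepest drop in the data: 141198 reads of the copy ended at 9833551, just inside, and 1185 at 9833550, just outside.

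The other 4 of the 6 commonest 3′ ends lay 95 to 106 nt upstream of the edge, at 9833646, 9833649, 9833654 and 9833657. The end at 9833646 took 4.62% and 3.65% in shScr, 5.67% and 3.43% with shTet1, and 13.9996% and 3.50% with shTet2. The end at 9833649 took 4.26% and 2.79% in shScr, 4.29% and 2.23% with shTet1, and 12.9% and 2.44% with shTet2. The ends at 9833657 and 9833654 took between 1.24% and 1.59% of the reads in 5 libraries, and 3.15% and 2.504% in replicate 1 of shTet2. These 4 upstream 3′ ends were thus highest in that 1 library, and replicate 2 of shTet2 took between 1.25% and 3.50% at them. The Wilson 95% interval of any of the 6 commonest 3′ ends in any library reached at most 1.16 percentage points to either side.

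The 5′ ends were more spread than the 3′ ends, and the 6 commonest lay 31 to 47 nt from the edge. The commonest 5′ end, 9833595 (44 nt from the edge), took 26.4% and 22.96% in shScr, 17.7% and 24.3% with shTet1, and 6.02% and 22.2% with shTet2. The next, 9833594, took 13.1% and 17.4% in shScr, 14.8% and 18.1% with shTet1, and 5.64% and 17.8% with shTet2. The end at 9833593 took 6.19% and 10.4% in shScr, 6.61% and 10.3% with shTet1, and 3.98% and 9.74% with shTet2. These 3 adjacent ends were all lowest in replicate 1 of shTet2.

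Of the remaining 3 of the 6 commonest 5′ ends, only 9833598 was also lowest there. The end at 9833583 took 3.03% and 3.76% in shScr, 6.41% and 3.65% with shTet1, and 5.87% and 3.997% with shTet2. The end at 9833582 took 2.62% and 3.50% in shScr, 5.13% and 2.57% with shTet1, and 4.58% and 2.66% with shTet2. Both were highest in replicate 1 of shTet1, followed by replicate 1 of shTet2. The end at 9833598 took 3.4002% and 3.21% in shScr, 1.86% and 3.91% with shTet1, and 1.32% and 4.02% with shTet2. Together the 6 commonest 5′ ends took 27.4% of the reads in replicate 1 of shTet2 and 52.4% to 62.8% in the other libraries.

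**Figure D1:**
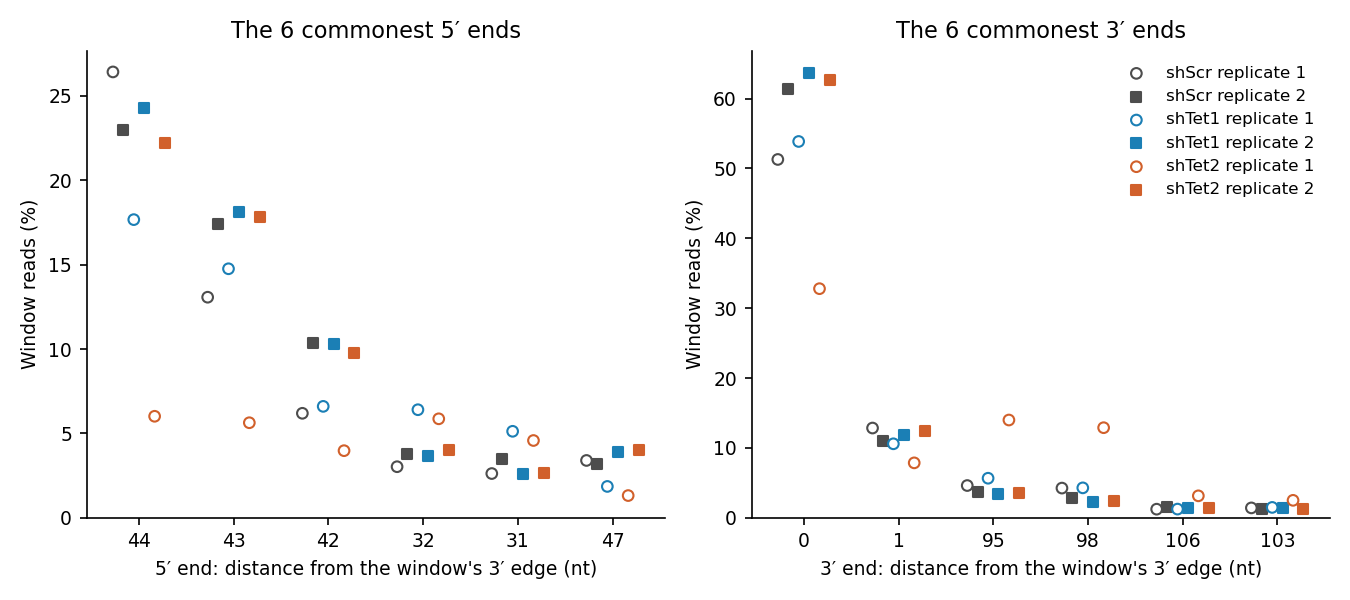
Share of window reads (%, vertical axis) at the 6 commonest 5′ ends (left) and 3′ ends (right), named on the horizontal axis by their distance in nt from the 3′ edge of the window. Each point is 1 library, with open circles for replicate 1 and filled squares for replicate 2; replicate 1 of shTet2 is lowest at the 3 leading 5′ ends (6.02%, 5.64% and 3.98%) and highest at the 3′ ends 95 and 98 nt upstream (13.9996% and 12.9%).

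Coverage therefore formed separate peaks, one against the 3′ edge and a broader one about 111 to 116 nt upstream. Between them coverage was lowest at 71 nt from the edge in each library, where 0.189% to 0.559% of the window reads crossed. Reads whose 3′ end lay within 3 nt of the edge made up 67.6% and 75.1% in shScr, 66.6% and 78.0% with shTet1, and 42.1% and 77.4% with shTet2. Reads whose 3′ end lay 80 nt or more upstream, a limit set after seeing the data, made up 23.5% and 18.7% in shScr, 25.9% and 17.4% with shTet1, and 49.5% and 17.3% with shTet2. Only in replicate 1 of shTet2 did the upstream group exceed the edge group, with a ratio of edge to upstream reads of 0.850 against 2.57 to 4.49 in the other 5 libraries. The upstream share averaged 33.4% ± 22.7 (SD, n = 2) in shTet2 and 21.1% ± 3.43 (SD, n = 2) in shScr, a difference smaller than the larger SD (p = 1 in an exact permutation test). Without replicate 1 of shTet2 the difference was -3.76 percentage points.

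**Figure D2:**
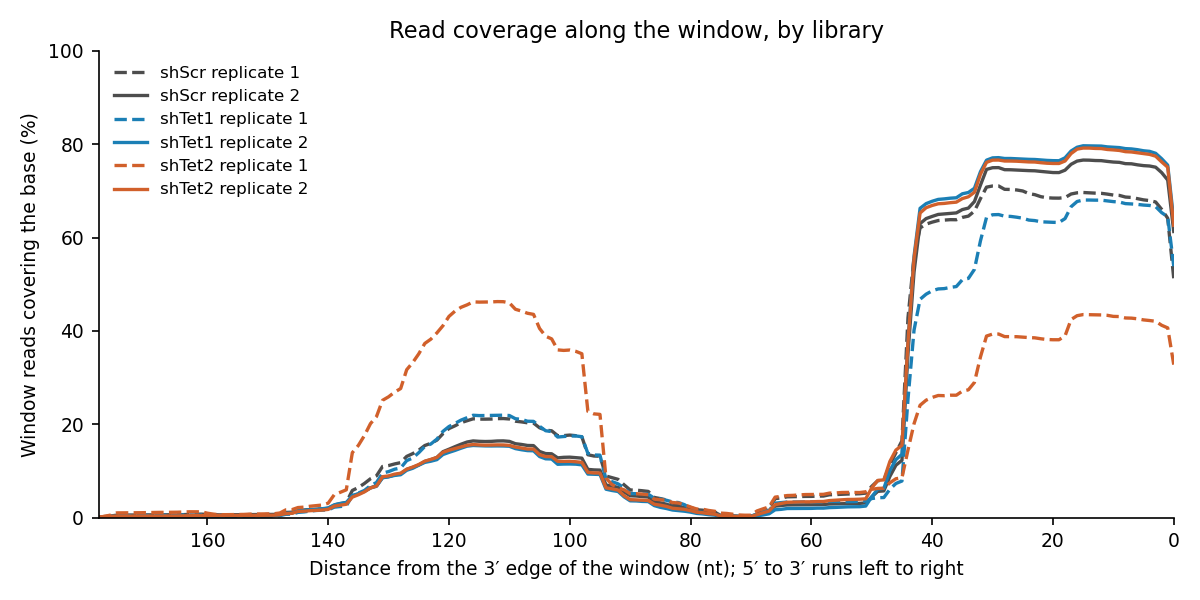
Share of window reads that cover each base (%, vertical axis) against distance in nt from the 3′ edge of the window (horizontal axis, 5′ to 3′ from left to right), with a line per library, dashed for replicate 1 and solid for replicate 2. The upstream peak reaches 46.3% in replicate 1 of shTet2 and 15.5% to 22.0% in the others, and all lines come close to 0 at 71 nt.

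Lengths followed the peaks. The median read in the window was 44 and 43 nt long in shScr, 38 and 44 nt with shTet1, and 34 and 44 nt with shTet2. Reads of 43 to 48 nt made up 53.2% and 56.7% in shScr, 40.9% and 59.2% with shTet1, and 20.4% and 56.7% with shTet2, and 45 nt was the commonest length on average over the libraries. Reads near the edge had a median of 44 nt in each library but replicate 1 of shTet2 (41 nt), and upstream reads had medians of 29 to 32 nt. Replicate 1 of shTet2 and of shTet1 thus held the fewest reads of 43 to 48 nt, and the replicate 2 libraries of both groups were close to shScr.

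Among the listed reads, the lengths known for Dicer products were a minor part. Reads of 21 to 23 nt made up 3.16% and 2.39% of window reads in shScr, 3.64% and 2.02% with shTet1, and 4.84% and 1.77% with shTet2. Both depleted groups overlapped shScr. Reads of 24 to 32 nt made up 11.6% to 25.6% and reads of 15 to 20 nt 6.04% to 12.6% of a library. Reads of 33 nt or more, longer than either class, made up 77.1% and 77.5% in shScr, 64.9% and 80.2% with shTet1, and 57.0% and 80.2% with shTet2. First bases gave no single preference: C led in each library (30.4% to 46.6%), followed by T in each (29.3% to 35.1%).

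**Figure D3:**
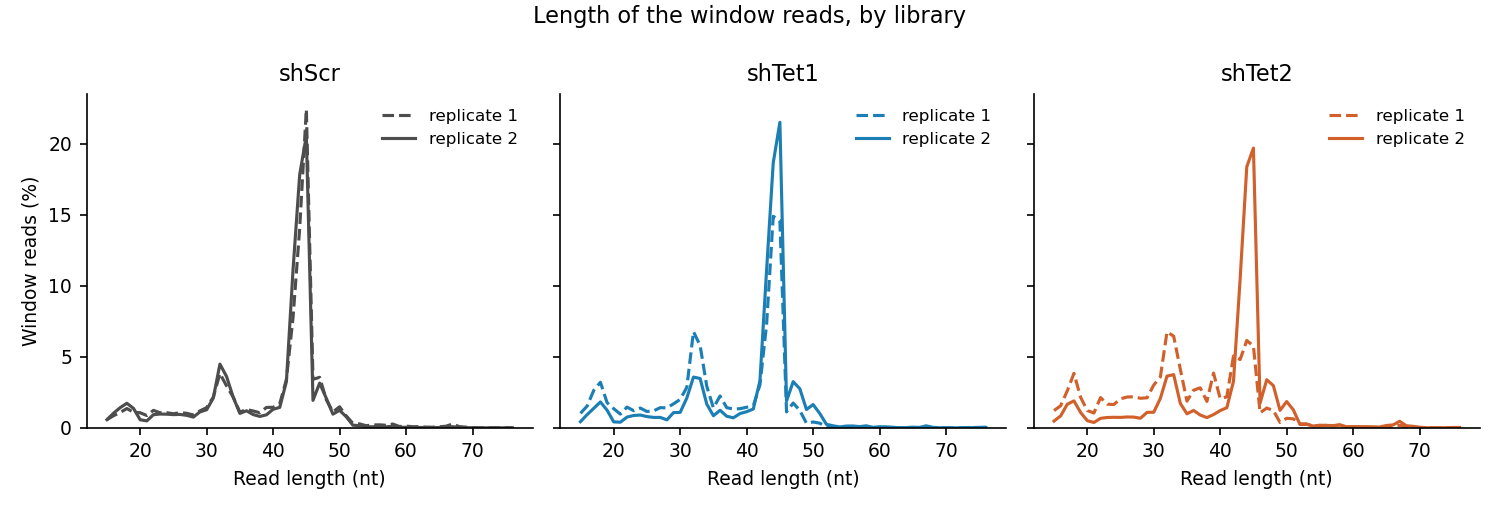
Share of window reads (%, vertical axis) at each read length in nt (horizontal axis), with a panel per group, dashed for replicate 1 and solid for replicate 2. A peak at 43 to 45 nt is present in each library and is lowest in replicate 1 of shTet2, where 20.4% of the reads have 43 to 48 nt against 40.9% to 59.2% in the others.

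No planned per-library measure of length or of end choice separated a depleted group from shScr beyond the spread between replicates. Single placements were not among these measures. The placement at 9833551 to 9833583, given below, held a larger share of the copy's reads in each depleted library than in both shScr libraries. How many other placements separated in this way was not counted. With 2 libraries against 2, the smallest p of an exact two-sided permutation test is 0.333, so none could pass 0.05, and of the 18 such tests planned 2 reached that smallest p. The mean length was 39.4 ± 0.207 nt in shScr (SD, n = 2), 38.0 ± 2.86 nt in shTet1 (SD, n = 2) and 37.1 ± 4.40 nt in shTet2 (SD, n = 2), with exact permutation p = 1 for both differences. The share at the commonest 5′ end was 24.7% ± 2.45 in shScr, 20.99% ± 4.69 in shTet1 and 14.1% ± 11.4 in shTet2 (SD, n = 2 each). For shTet2 both libraries were below both shScr libraries (exact permutation p = 0.333), and the nearest pair, replicate 2 of each, differed by -0.764 percentage points. Without replicate 1 of shTet2 that difference went from -10.6 to -2.49 percentage points. The share at the edge base was 56.3% ± 7.08 in shScr, 58.8% ± 6.97 in shTet1 and 47.7% ± 21.1 in shTet2 (SD, n = 2 each, exact permutation p = 0.667 and 1). Without replicate 1 of shTet2 its difference from shScr turned from -8.59 to 6.33 percentage points.

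The diversity of ends was given as an effective number, the inverse of the chance that a pair of reads of one library share an end. For 5′ ends it was 10.1 and 9.90 in shScr, 14.3 and 9.12 with shTet1, and 31.8 and 10.1 with shTet2. Both shTet2 values were above both shScr values (exact permutation p = 0.333), but replicate 2 of shTet2 exceeded the nearest shScr library by less than the shScr libraries differed from each other. Without replicate 1 of shTet2 the difference went from 10.99 to 0.134. For 3′ ends the effective number was 3.50 and 2.55 in shScr, 3.25 and 2.37 with shTet1, and 6.53 and 2.44 with shTet2, and each depleted group overlapped shScr. The 3′ ends were thus more concentrated than the 5′ ends in each library, although 161 distinct 3′ and 164 distinct 5′ positions were seen in the window. Among reads of 18 to 32 nt alone the effective number of 3′ ends was 16.1 and 10.3 in shScr, 10.1 and 9.58 with shTet1, and 10.1 and 9.45 with shTet2, so that here replicate 1 of shScr stood apart from the other 5 libraries.

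The replicate 2 libraries lay close together in these measures, and the replicate 1 libraries did not. Among the replicate 2 libraries the mean length ranged from 39.3 to 40.3 nt and the edge base share from 61.3% to 63.7%, against 34.0 to 39.6 nt and 32.8% to 53.9% among the replicate 1 libraries. Within replicate 1 the mean length minus that of shScr was -3.59 nt for shTet1 and -5.53 nt for shTet2, and within replicate 2 it was 0.746 and 0.993 nt. The labels do not say what the replicate number stands for, and its part in these differences was not tested.

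Read numbers per placement were also tested across the series. All L1 copies together had 895 placements that reached 10 reads in 2 or more libraries, and 543 of the copy's 4206 placements were among them, holding 91.4% of its reads. In a limma voom fit with TMM scaling, 0 of the 895 placements passed an adjusted p of 0.05 for shTet1 and 0 for shTet2 (0% called in each). At an unadjusted p under 0.05, 2 of the 543 placements of the copy were found for shTet1, against 1.01% of all those tested, and 37 for shTet2 (6.81%), against 6.7% of all. A fit with a mean-variance trend on log2 scaled reads in place of voom also gave 0 at the adjusted threshold. At the unadjusted one it gave 11 (shTet1) and 2 (shTet2) of the copy's 543 placements, against 26 and 4 of all 895. The 895 include the copy's own placements. Among the 352 placements of other L1 copies, the voom fit gave 1.99% at the unadjusted threshold for shTet1 and 6.53% for shTet2. The copy's share for shTet2 was close to the latter. The median log2 fold changes of those 352 were -0.05 and -0.03. The median log2 fold change over the 543 placements was -0.14 for shTet1 and -0.09 for shTet2, beside -0.13 and -0.06 over all 895, and the median standard error was 0.90 and 0.67.

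The commonest placement, 9833551 to 9833595 (45 nt), held 20.9% and 19.6% of the copy's reads in shScr, 13.9% and 20.6% with shTet1, and 4.45% and 18.7% with shTet2. On the log2 scale shTet1 differed from shScr by -0.40 there (SE 1.18) and shTet2 by -1.13 (SE 1.20), with limma adjusted p of 0.996 and 0.733. The shTet1 value was 0.35 without its replicate 1, and the shTet2 value was 0.27 without its replicate 1 and -3.01 without its replicate 2. The next, 9833551 to 9833594, held 10.6% and 15.2% in shScr, 12.4% and 15.7% with shTet1, and 4.52% and 15.4% with shTet2. The third, 9833551 to 9833593, held 4.59% and 8.61% in shScr, 5.18% and 8.44% with shTet1, and 3.00% and 8.02% with shTet2. All 3 had their lowest share in replicate 1 of shTet2, and the other 5 libraries overlapped across groups.

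The fourth, 9833551 to 9833583 (33 nt), held 1.77% and 2.60% in shScr, 4.46% and 2.69% with shTet1, and 4.05% and 2.89% with shTet2. By this share each depleted library was above both shScr libraries. In the TMM-scaled values used for the fold changes, only shTet1 kept this separation. Replicate 1 of shTet2 had a scaled value of 16812.7, below the 20882.2 of replicate 2 of shScr, so shTet2 overlapped shScr. The log2 fold changes of this placement, 0.56 for shTet1 and 0.50 for shTet2, had standard errors of 0.70 and 0.74 (limma adjusted p = 0.996 and 0.801). The fifth, 9833551 to 9833582 (32 nt), held 2.07% to 4.12% and the sixth, 9833552 to 9833595 (44 nt), 0.882% to 2.64% of the reads, with overlap between the groups. For the 5 placements after the commonest, the limma adjusted p was at least 0.801 in each comparison. By length, the 71 tested placements of 43 to 48 nt had a median log2 fold change of -0.46 for shTet1 and -0.81 for shTet2. Of these, 11 and 19 were above 0, against 383 and 418 of all 895. These placements overlap and share ends, so they do not count as replicates. The share of reads of this length was low in replicate 1 of shTet1 and shTet2 (40.9% and 20.4%) and not in replicate 2 (59.2% and 56.7%). The 98 placements of 15 to 20 nt had medians of -0.00033 and 0.09.

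The placements with the smallest p in each direction held few reads. For shTet1 the smallest p among higher placements was at 9833552 to 9833566 (15 nt), with 7 and 13 reads in shScr and 3 and 8 in shTet1 and a log2 fold change of 2.04 (standard error 0.70, limma adjusted p = 0.996). The smallest among lower placements was at 9833587 to 9833618 (32 nt), with 17 and 18 reads in shScr and 0 and 0 in shTet1. Its limma adjusted p was 0.996, and with the floor of 3 reads per library the shTet1 depths allow a share of up to 0.0426% and 0.0178% of the window reads. For shTet2 the placement at 9833604 to 9833620 (17 nt) was higher, with 7 and 13 reads in shScr and 31 and 7 in shTet2 (log2 fold change 1.90, SE 0.60, adjusted p = 0.623 by limma). The placement at 9833638 to 9833653 (16 nt) was lower, with 69 and 102 reads in shScr and 1 and 13 in shTet2 (log2 fold change -4.14, standard error 1.12, limma adjusted p = 0.623). Replicate 1 of shTet2 carried most of that value, which was -0.49 without it and -5.50 without replicate 2. None of the 4 passed the adjusted threshold.

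The last base of the reads often differed from the genome, and the inner bases seldom did. In the window, 42.3% of last bases and 0.548% of inner bases were mismatched. Positions are counted here from 1 at the 5′ edge of the window to 179 at its 3′ edge, with the genome base first. Among reads that ended at the edge base, A179C was found in 59.3% of all 6 libraries pooled, with 57.99% and 61.2% in shScr, 60.1% and 59.2% with shTet1, and 57.2% and 57.4% with shTet2. Both shTet2 libraries were below the other 4, and shTet1 lay within the range of shScr. Away from the edge, last-base changes were ranked by their rate at positions where at least 1000 reads ended. The highest rates were those of C95T (35.2%), C81T (30.8%) and C69T (27.8%), followed by C73T (21.7%). By reads C81T (3799) was ahead of C73T (943), C69T (500) and C95T (469). No inner substitution, among positions with over 1000 reads, exceeded 1.76% (T175A). The reads with the most frequent placement thus differed from the genome mainly in the first base of the run of A.

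The rate of last-base mismatches depended on the place. It was 63.3% to 70.7% by library at the edge, 10.6% to 19.4% at other 3′ ends of the copy, and 3.93% to 6.09% in the other L1 copies. These 3 ranges did not overlap. The base before the last was mismatched in 0.322%, 1.34% and 1.21% of the reads at these places. What changed the last bases was not tested.

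**Figure D4:**
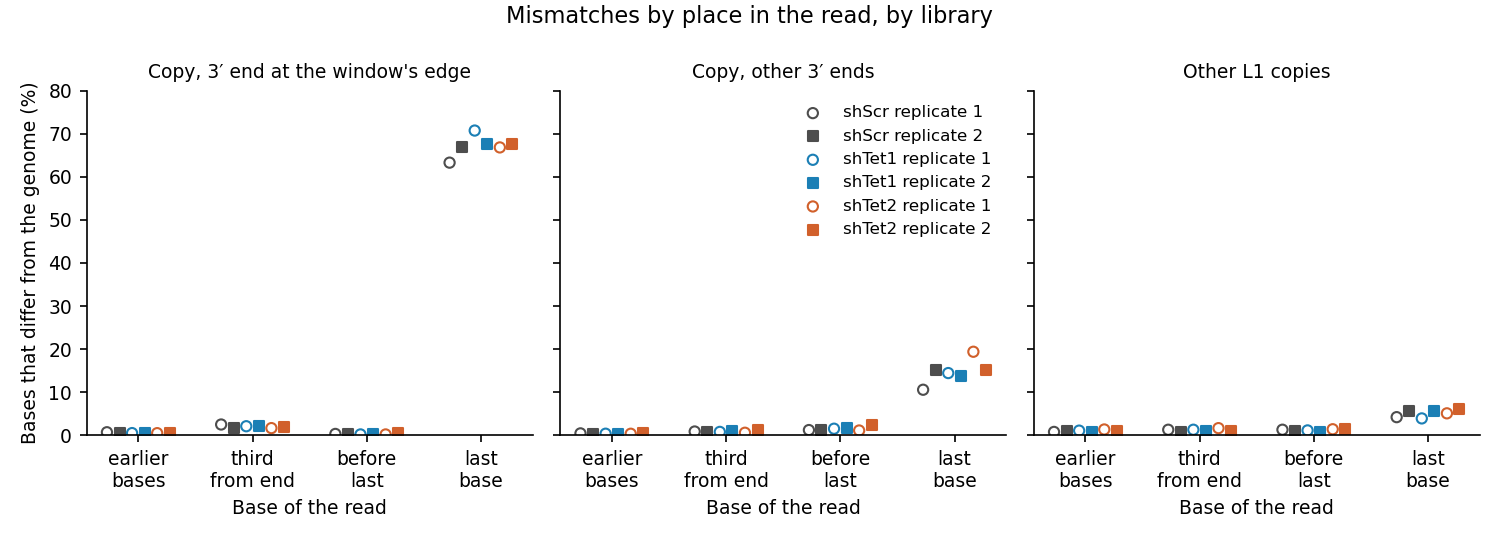
Share of bases that differ from the genome (%, vertical axis) at the last base, the base before it, the third from the end and all earlier bases of the read (horizontal axis). Panels show copy reads that end at the edge base, copy reads with other 3′ ends and reads of other L1 copies, with a point per library; the last base at the edge stands at 63.3% to 70.7%, above the 10.6% to 19.4% of other 3′ ends.

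What followed the stretch was then read from the sequences of the reads listed in the copy, without their aligned position. A total of 155201 reads (58.4% of the copy's reads) held the last 14 nt before the edge base, gacacaagggtttg (9833552 to 9833565), so the bases that came after it could be counted. Reads ended there with nothing added in 14.5% to 19.5% by library, with a single C in 47.3% to 53.1%, and with a single A, the base in the genome, in 23.5% to 27.1%. The single C was the most frequent ending in each library. An ending of AA was found in 0.168% to 0.705% and of 3 or more A in 0.0241% to 0.104%, although the genome continues with 36 A. Few reads thus ran into the run of A.

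Several endings did not overlap between shScr and the depleted libraries. A single G made up 3.85% and 4.72% in shScr, 9.001% and 7.16% with shTet1, and 7.42% and 8.01% with shTet2, that is 4.28% ± 0.614, 8.08% ± 1.30 and 7.71% ± 0.416 (SD, n = 2 each). Each depleted library was above both shScr libraries, with p = 0.333 in both exact permutation tests, the smallest possible. A single A went the other way, with 27.1% and 26.9% in shScr, 23.5% and 25.6% with shTet1, and 25.5% and 26.1% with shTet2. AA, and endings of 2 or more bases as a whole, were likewise lower in each depleted library than in both shScr libraries, at 1.07% or less of the reads everywhere. These endings were picked out after all kinds had been seen. AA is among the endings of 2 or more bases, and shares of one total move together, so these are not separate results. The G difference stayed between 2.88 and 4.72 percentage points for shTet1, and between 2.99 and 3.86 for shTet2, with any 1 library left out. It was positive within both replicate numbers. These signs follow from the lack of overlap and add no support to it. Last bases changed to G were also more frequent in the depleted libraries at other 3′ ends of the copy, with 0.306% and 0.463% in shScr, 0.945% and 0.681% with shTet1, and 0.875% and 0.856% with shTet2. In the other L1 copies they made up 0.295% and 0.395% in shScr, 0.365% and 0.517% with shTet1, and 0.501% and 0.496% with shTet2, where shTet1 overlapped shScr. The shares of a single C, of a single T or of nothing added overlapped between shScr and each depleted group.

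The sequence of the stretch was not unique to chromosome 13. The genome sequence of 54.7% of the window reads' placements, weighted by reads, occurred without mismatch at another place, and 98.1% did so when the last base was left out. By library the first share was 53.4% and 47.98% in shScr, 62.2% and 45.5% with shTet1, and 81.3% and 46.4% with shTet2, highest where the upstream reads were most frequent. Placements found nowhere else were longer, with a mean of 44.96 nt against 33.4 nt. The 3 commonest placements occurred only in the copy with their last base and at 1 other place without it. The placement at 9833552 to 9833595 matched chromosome 9 (118584072 to 118584115, minus strand) in an intron of Itga9, which encodes an integrin subunit and lies on the plus strand. The placement at 9833551 to 9833583 matched chromosome 4 (136094123 to 136094155, minus strand) in an intron of Luzp1, also a plus-strand gene. Neither place lies in an L1 copy of these files, so reads there could not have been listed.

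Taken as sequenced, 11.8% of the window reads matched the genome without mismatch in the copy alone, 35.7% there and elsewhere, 0% elsewhere only, and 52.5% at no place searched. The places searched were those that share a word of 13 nt with the stretch. A read with a better fit elsewhere would have been aligned there, so the 0% follows from the alignment and is no result. The share with no exact place was 49.6% and 56.1% in shScr, 53.3% and 57.9% with shTet1, and 44.2% and 57.5% with shTet2. The commonest read was among them. Reads that fit several places equally well had been assigned to one at random by the authors, and reads outside L1 copies are not in the files, so the listed number can be lower than the number with this sequence. Placements that also occur elsewhere were shorter on average (33.4 against 44.96 nt), so such a loss could differ by length and by position in the window. It could also differ by the ending of the read. The commonest placement, 9833551 to 9833595, occurred only in the copy, whereas 9833552 to 9833595, which lacks its last base, also occurred on chromosome 9. The shares by length, by end and by added base given here therefore describe the listed reads.

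No annotated ribosomal RNA gene matched the stretch. The annotation holds 334 such genes, 332 nuclear and 2 mitochondrial, none named 18S or 28S, and 0 of them share a word of 15 nt with it. The sequences of 18S and 28S ribosomal RNA were not used here, so an origin of the reads from them was not tested.

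The reads did not follow the annotated miRNA gene. mmu-mir-2134-4 shares 15 nt with the window and reaches 42 nt beyond its 5′ edge. Its sequence is shown because it is the only gene annotated in the copy.
mmu-mir-2134-4, chromosome 13: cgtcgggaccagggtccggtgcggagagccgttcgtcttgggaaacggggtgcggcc
A total of 3773 reads (1.42% of the copy's reads) overlapped it by at least 1 base, and 1357 (0.511%) lay wholly inside it. Those inside had a median length of 17 nt, and 244 had 20 to 25 nt, around the usual length of a mature miRNA. They made up 0.575% and 0.169% of the copy's reads in shScr, 1.18% and 0.0995% with shTet1, and 1.47% and 0.109% with shTet2, so that each replicate 1 was above each replicate 2. The entries of the same name family on chromosomes 1, 4 and 9 differ from it by 3, 1 and 1 edits.

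Reads outside the window were few and mostly touched its edges. There were 4009, in 727 placements, of which 1516 crossed the 3′ edge, 1850 the 5′ edge, 641 lay beyond the 5′ edge and 2 beyond the 3′ edge. They made up 1.72% and 0.971% of the copy's reads in shScr, 1.94% and 1.14% with shTet1, and 2.60% and 1.16% with shTet2. The group means were 1.35% ± 0.531, 1.54% ± 0.566 and 1.88% ± 1.01 (SD, n = 2 each, exact permutation p = 0.667 for both differences). At the 5′ edge, 270 reads had their 5′ end at 9833729, just inside, and 95 at 9833730. Farther out, 331 reads ran from 9833729 to 9833744 and 112 from 9833730 to 9833744.

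The commonest outside placement by mean share covered 9833729 to 9833744 (16 nt), within mmu-mir-2134-4, and reads gccgttcgtcttggga. It had 137 and 9 reads in shScr, 32 and 0 with shTet1, and 150 and 3 with shTet2. The next, 9833550 to 9833595 (46 nt) and 9833550 to 9833594 (45 nt), extend the commonest window placements by 1 base into the run of A. The longer had 140 and 103 reads in shScr, 2 and 22 with shTet1, and 12 and 22 with shTet2. The shorter had 76 and 80 reads in shScr, 6 and 10 with shTet1, and 6 and 23 with shTet2. The first was thus found mainly in replicate 1 of each group, in which outside reads averaged 35.9, 24.8 and 26.5 nt in shScr, shTet1 and shTet2, against 39.5, 46.7 and 48.3 nt in replicate 2.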

How the data were processed

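Small RNA-seq libraries from 6 samples (3 groups of 2) were analysed. The authors trimmed reads with Trim Galore 0.3.3 without a quality cut, discarded those under 15 nt, and used Bowtie2 2.1.0 with mm9, placing reads with several equal hits at random. The deposited files list reads in L1 copies, a line per read with its sequence and position. How the copies were chosen is not given in the sources used here. Library sizes outside L1 are unknown. The study's methods give another puromycin dose than the labels, and a range of durations that includes theirs.

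Reads were tallied per placement, with no filter other than those stated, using Python 3.11.15, pandas 2.3.3, numpy 2.4.6 and pysam 0.24.0. Genome sequence and genes came from NCBIM37 (the same build) and GENCODE. Placements that reached 10 reads in 2 or more libraries were tested over all L1 copies with limma 3.58.1 voom in R 4.3.3, all 6 libraries in one fit, trimmed-mean (TMM) scaling and Benjamini-Hochberg adjustment. Per-library measures were compared by exact two-sided permutation tests. The fit was tested on counts simulated with changes in shTet1. Of 4-fold changes it recovered 63.3% at a dispersion (spread between libraries) of 0.05 and 4.52% at 0.4. Of 16-fold changes it recovered 95.5% and 59.3%, and false calls numbered 0 to 12 per run. A placement without a call can therefore have changed. Intervals are Wilson 95% and limits for 0 assume 3 reads.

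Named were the 6 commonest placements, 5′ ends and 3′ ends by mean share over the libraries, the 3 commonest placements outside the window, and the placement with the smallest p in each direction where none passed. Members and lists were chosen with earlier results of these data known. Alternatives were other scaling and filters, a trend fit, only the groups compared, the replicate block, each replicate left out, placements counted once, reads without mismatch, reads of 18 to 32 nt and the whole copy.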

Additional observations from a re-analysis of the deposited data

How the results depend on the processing

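The count of placements of the copy past the adjusted threshold was 0 in each comparison under all alternatives run: no TMM, scaling to the copy's reads, minimums of 5 and 50 reads, the trend fit, only the groups compared, the replicate block and leaving out any 1 library. The lowest adjusted p among them was 0.0842 (shTet2, minimum of 50 reads). With the replicate block, unadjusted calls among the copy's 543 placements went from 2 to 14 (shTet1) and from 37 to 42 (shTet2). Over all 895 placements they went from 9 to 45 and from 60 to 72, so the rise was not particular to the copy. Deviations from the group means of same-numbered libraries correlated across the 895 placements (r = 0.36, 0.48 and 0.42 for the pairs of groups), but with 2 pairs per comparison and no label that explains the number, this is a hint from the data. For the per-library measures the replicate block gives the same mean difference, and it changed no other call. Of 169 alternative values for the named placements, 27 differed in sign from the reported one, and none of these was called.

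Without shTet2 replicate 1 or shTet1 replicate 1 many differences from shScr changed sign. With 1 library left out at a time, the difference in mean length ranged from -3.44 to 0.600 nt (shTet1) and from -5.38 to 0.847 nt (shTet2). In the same order, the 21 to 23 nt share ranged from -0.750 to 0.862 and from -1.001 to 2.06 percentage points, the share of 33 nt or more from -12.3 to 2.90 and from -20.3 to 2.89, the commonest 5′ end from -7.02 to -0.383 and from -18.7 to -2.49, and the commonest 3′ end from -2.51 to 7.50 and from -23.5 to 6.33. The effective number of 5′ ends ranged from -0.877 to 4.34 and from 0.134 to 21.8, and that of 3′ ends from -0.696 to 0.252 and from -0.593 to 3.50. The mismatch share ranged from -0.521 to 5.92 and from -8.66 to 4.62, the outside share from -0.211 to 0.590 and from -0.183 to 1.25, and the upstream share from -3.72 to 4.82 and from -3.76 to 28.4 percentage points.

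Counting each placement once per library gave 1.69 for the 21 to 23 nt share of shTet1, 0.893 and 0.314 for the commonest 5′ end of shTet1 and shTet2, 0.797 for the commonest 3′ end of shTet2, 2.70 for its mismatch share and -3.53 for the outside share of shTet1, in percentage points. Reads without mismatch gave -0.0540 for the 21 to 23 nt share of shTet2. Reads of 18 to 32 nt gave 3.41 for the commonest 3′ end and 4.97 for the mismatch share of shTet2, -1.89 and -0.640 for the effective number of 5′ ends and -3.39 and -3.46 for that of 3′ ends. The other 47 of 60 planned values under these settings kept their sign and moved by no more than the larger SD of the groups. Here the cause was not tested. Replicate 1 of shTet1 has the fewest reads (7040 in the window), which limits placements with low counts.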
